A study of Homo sapiens with 4 samples.

Results

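The transcription factor genes FOS, FOSL1, FOSL2, JUN, JUNB, JUND, ATF3, EGR1 and MAF were examined in OCI-AML3 cells, an established human acute myeloid leukemia line that expresses mutant NPM1 (mtNPM1). They were chosen by name as AP-1, EGR and MAF factors used in monocytic cells and are 9 of the 58037 genes in the count table. All 9 had enough counts to be tested and were among 15718 tested genes. RNA was sequenced from 2 libraries of cells transfected with a control guide (sgRNA Ctrl) and from 2 libraries transfected with sgNPM1A, a CRISPR guide against the mutant allele (mtNPM1 KO), all harvested after 3 days, given as 72 hours in the labels. Both conditions share the lesions of the line itself, which are an NPM1 mutation and a DNMT3A mutation each on a single allele and an NRAS mutation on both alleles. The cells were transfected populations of a single line and not clones, and the labels do not give the share of cells that was edited. The medium is alpha-MEM with serum in the labels and RPMI in the study's methods, with no difference between conditions stated in either.

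AP-1 is a dimer of basic leucine zipper proteins. A Jun protein can pair with itself or another Jun, whereas the Fos proteins bind DNA only with a partner such as a Jun, and the dimer binds the sequence TGACTCA or, with ATF partners, the CRE TGACGTCA. FOS, JUN, JUNB and EGR1 are immediate early genes, induced within minutes by the MAP kinase pathways through factors such as SRF, while JUND is kept on in most cells. In the myeloid lineage EGR1 and the MAF proteins are known for their roles in monocytes and macrophages.

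The libraries were of similar depth, with total counts between 25069484 and 28276391, from 8.37% to 8.63% of them on mitochondrial genes, and levels are given as CPM, which are counts relative to the TMM-normalized library size. A count of 3 amounted to 0.108 to 0.118 CPM, a floor for counting error only. NPM1 itself, for which the reads of mutant and wild-type alleles are counted together, had 1318.7 and 1385.4 CPM with sgRNA Ctrl and 1189.4 and 1131.9 CPM with sgNPM1A. Its log2 fold change was -0.22 (standard error 0.07, edgeR adjusted p = 0.0360). A gene was called where edgeR's quasi-likelihood test gave it an adjusted p under 0.05 together with a change of 1.25-fold or more. By this rule 20.8% of the tested genes were called, 10.5% higher and 10.3% lower with mtNPM1 KO, and the median log2 fold change over all tested genes was 0.00. Nothing but the replicate numbers in the labels and the wording of the study's legends says that the libraries are biological replicates, so the p-values measure the spread between these libraries. With 2 libraries in each condition, the smallest two-sided p of an exact permutation test is 0.333.

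Of the 9 genes, FOSL2, JUN, JUND, EGR1 and MAF were higher with mtNPM1 KO, JUNB was lower, and FOS, FOSL1 and ATF3 were not called. Over all tested genes, 10.5% were higher and 10.3% lower. MAF was tested only because its counts with sgNPM1A passed the filter on low counts. The median log2 fold change of the 9 genes was 0.54. For all 9 genes the CPM of the conditions did not overlap, which was also true of 63.1% of all tested genes. As the RNA came from bulk cells, a change in the number of cells that express a gene and a change in RNA per cell cannot be told apart.

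**Figure D1:**
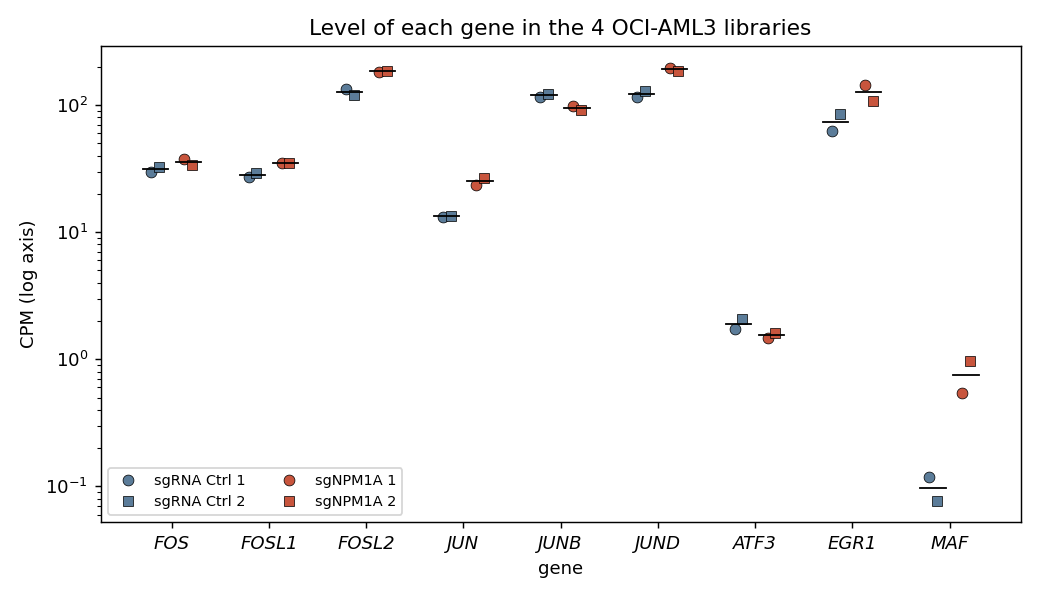
CPM (TMM-normalized, log axis) of each gene in the 4 libraries, with circles for replicate 1, squares for replicate 2, blue for sgRNA Ctrl, red for sgNPM1A and a black bar at the mean of each condition. The conditions do not overlap for any gene, JUNB and ATF3 are the genes drawn lower with sgNPM1A, and MAF lies under 1 CPM in every library.

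The Jun genes moved in opposite directions. JUN, a founding member of AP-1 (ENSG00000177606.6, chr1:58780791-58784047 of GRCh38, a gene of 1 exon), had 336 and 350 counts with sgRNA Ctrl and 656 and 741 counts with sgNPM1A. Both sgNPM1A libraries were thus well above both controls, with 13.4 ± 0.209 CPM (SD, n = 2) against 25.1 ± 2.23 CPM (SD, n = 2), and the log2 fold change was 0.91 (95% interval 0.68 to 1.14, edgeR adjusted p = 7.44e-05). JUND, the Jun protein that is least dependent on stimulation (ENSG00000130522.5, chr19:18279694-18281622, 1 exon), had 2947 and 3368 counts with sgRNA Ctrl and 5502 and 5187 counts with sgNPM1A. It rose from 123.0 ± 9.98 to 192.1 ± 7.48 CPM (SD, n = 2 each), a log2 fold change of 0.64 (95% interval 0.48 to 0.81, edgeR adjusted p = 8.18e-05). JUNB, which can oppose JUN in proliferating cells (ENSG00000171223.5, chr19:12791486-12793315, 1 exon), had 2957 and 3179 counts with sgRNA Ctrl and 2734 and 2521 counts with sgNPM1A. The conditions were separate but close, with 119.5 ± 4.54 against 94.4 ± 5.16 CPM (SD, n = 2 each), a log2 fold change of -0.34 (95% interval -0.50 to -0.18, edgeR adjusted p = 0.00510). The call of JUNB rested on single libraries. Without sgNPM1A replicate 2 its log2 fold change was -0.28 (edgeR adjusted p = 0.133), and without sgRNA Ctrl replicate 2 it was -0.30 (edgeR adjusted p = 0.0202), which is under the fold of 1.25. JUNB lies on the opposite strand to HOOK2 and overlaps it in the GENCODE annotation, and the strand setting of the counting is not given in the sources used here. HOOK2, which encodes a microtubule-linker protein, had 1120, 1218, 1127 and 1007 counts in the same order of libraries, with a log2 fold change of -0.25 (edgeR adjusted p = 0.0551).

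Sequence upstream of the start of transcription is shown for the called genes, so that the response motifs they hold can be compared, first for the Jun genes and then for FOSL2, EGR1 and MAF where they are described. In the 250 bases before the RefSeq start (GRCh38.p14), both strands were searched for the AP-1 site (TGACTCA or TGAGTCA), the CRE (TGACGTCA), the JUN-type site (TGACATCA), an EGR site (GCGTGGGCG) and the CArG box, to which SRF binds. No 2 of the matches found overlap. Entries for 8 of the 9 genes were matched, with FOSL1 the gene without one. Capitals mark the motif in the following windows, each printed 5′ to 3′ on the strand of its gene, namely chr1:58784048-58784297 on the minus strand for JUN, chr19:18281623-18281872 on the minus strand for JUND and chr19:12791236-12791485 on the plus strand for JUNB.
JUN: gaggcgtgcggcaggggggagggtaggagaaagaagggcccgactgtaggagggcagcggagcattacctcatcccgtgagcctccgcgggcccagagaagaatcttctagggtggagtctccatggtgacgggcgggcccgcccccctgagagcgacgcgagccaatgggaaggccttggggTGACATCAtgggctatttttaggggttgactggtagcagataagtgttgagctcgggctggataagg
JUND: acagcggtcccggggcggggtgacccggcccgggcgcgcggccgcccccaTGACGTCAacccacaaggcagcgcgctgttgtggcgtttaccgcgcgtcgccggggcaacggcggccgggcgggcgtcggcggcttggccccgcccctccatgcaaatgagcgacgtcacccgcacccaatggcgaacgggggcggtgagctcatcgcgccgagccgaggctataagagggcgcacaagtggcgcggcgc
JUNB: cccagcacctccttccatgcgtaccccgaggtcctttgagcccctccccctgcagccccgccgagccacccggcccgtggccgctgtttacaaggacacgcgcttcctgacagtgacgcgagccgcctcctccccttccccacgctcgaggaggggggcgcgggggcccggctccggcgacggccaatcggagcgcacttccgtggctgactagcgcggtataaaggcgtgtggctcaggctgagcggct

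JUN held the JUN-type site, known in its own promoter as a site for dimers of JUN with ATF2, from 67 to 60 bases upstream, and JUND held a CRE from 200 to 193 bases upstream. The window of JUNB held none of the motifs. Of 34943 windows of the same length, 2.37% held the JUN-type site and 1.63% the CRE. A match describes the letters in the window and does not show that a factor binds there.

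To compare levels between genes, CPM were divided by the length of each gene's canonical transcript in kilobases. On this scale JUNB and JUND stood at the same level with sgRNA Ctrl, at 65.3 ± 2.48 and 63.8 ± 5.17 CPM per kb (SD, n = 2 each), a difference smaller than their spread, and JUN was far below at 4.10 ± 0.0642. With sgNPM1A, JUND stood at 99.6 ± 3.88 and JUNB at 51.6 ± 2.82 CPM per kb (SD, n = 2 each). The ratio of JUND to JUNB was accordingly 0.945 and 1.01 in the sgRNA Ctrl libraries and 1.91 and 1.95 in the sgNPM1A libraries. As a share of the Jun transcripts, JUNB took 49.8% and 48.4% with sgRNA Ctrl and 32.9% and 32.1% with sgNPM1A. JUND took 47.1% and 48.6% with sgRNA Ctrl and 62.7% and 62.6% with sgNPM1A. JUN took 3.18% and 2.99% with sgRNA Ctrl and 4.43% and 5.30% with sgNPM1A, so that it remained the least abundant Jun transcript in each library. The summed level of the Jun genes was 133.2 ± 7.72 CPM per kb with sgRNA Ctrl and 158.9 ± 6.01 with sgNPM1A (SD, n = 2 each).

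**Figure D2:**
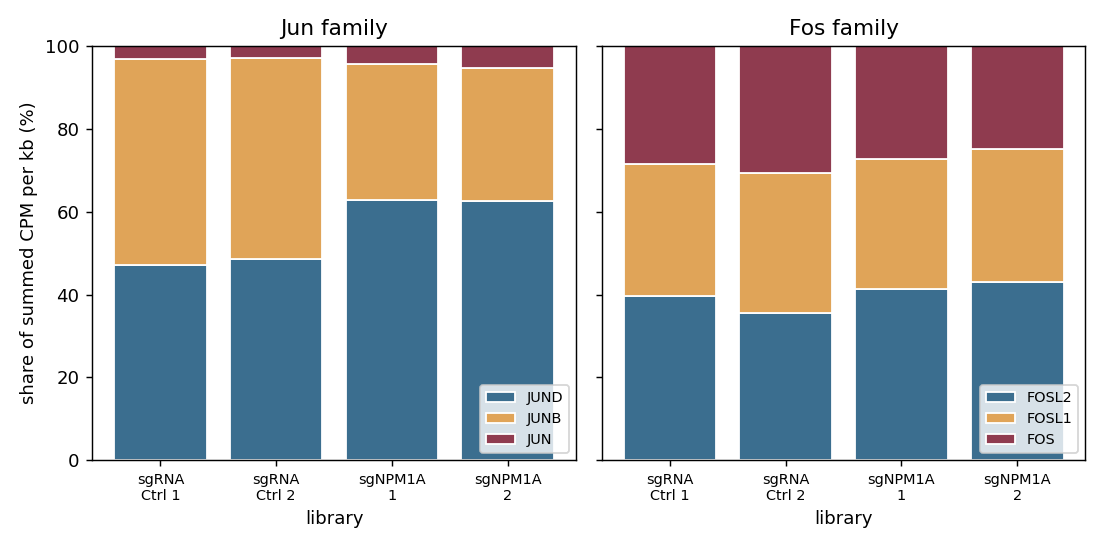
Share (%) of each gene in the summed CPM per kb of the Jun genes (left) and of the Fos genes (right), with 1 stacked bar per library. JUND is between 47.1% and 48.6% of the Jun sum in the sgRNA Ctrl bars and between 62.6% and 62.7% in the sgNPM1A bars, while FOSL2 goes from between 35.4% and 39.8% to between 41.5% and 43.1% of the Fos sum.

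Among the Fos genes FOSL2 was called. FOSL2, which encodes FRA2 (ENSG00000075426.11, chr2:28392858-28417317, 4 exons), had 3385 and 3111 counts with sgRNA Ctrl and 5076 and 5178 counts with sgNPM1A. It rose from 126.6 ± 9.22 to 184.3 ± 3.10 CPM (SD, n = 2 each), a log2 fold change of 0.54 (95% interval 0.39 to 0.70, edgeR adjusted p = 0.000214). The window upstream of FOSL2, chr2:28392608-28392857 on the plus strand, held none of the motifs and is printed without capitals. The noncoding genes FOSL2-AS1 and ENSG00000270640, which overlap it, had at most 7 and 8 counts in any library. FOSL1, which encodes FRA1 (ENSG00000175592.8, chr11:65892049-65900545, 4 exons), had 688 and 752 counts with sgRNA Ctrl and 969 and 975 counts with sgNPM1A. Its level was 28.1 ± 1.39 against 34.9 ± 0.248 CPM (SD, n = 2 each), with a log2 fold change of 0.32 (95% interval 0.13 to 0.50, edgeR adjusted p = 0.0175). It thus passed the threshold on the adjusted p but lay just under the fold of 1.25, with which it was not called. Of the 50-base words of its transcripts, 2.94% also occur in the pseudogene FOSL1P1, while those of the other 8 genes occur in no other gene. FOS (ENSG00000170345.9, chr14:75278828-75282230, 4 exons), the Fos factor known for its fast and brief induction, had 757 and 846 counts with sgRNA Ctrl and 1048 and 938 counts with sgNPM1A. Its log2 fold change was 0.19 (95% interval -0.01 to 0.39, edgeR adjusted p = 0.149), an interval that includes no change and also folds above 1.25. Per kb, the sum of the Fos genes was 50.2 ± 0.414 CPM with sgRNA Ctrl and 64.9 ± 0.676 with sgNPM1A (SD, n = 2 each). The Jun sum was 2.56 and 2.75 times the Fos sum in the sgRNA Ctrl libraries and 2.49 and 2.40 times the Fos sum in the sgNPM1A libraries.
FOSL2: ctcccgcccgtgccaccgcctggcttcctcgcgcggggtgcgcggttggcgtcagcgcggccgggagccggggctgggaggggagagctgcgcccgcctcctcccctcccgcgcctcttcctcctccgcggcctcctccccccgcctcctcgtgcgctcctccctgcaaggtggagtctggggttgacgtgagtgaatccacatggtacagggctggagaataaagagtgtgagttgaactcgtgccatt

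ATF3, a stress-induced factor that can repress as a homodimer and activate with JUN (ENSG00000162772.16, chr1:212565407-212620777, 4 exons), was scarce. It had 44 and 54 counts with sgRNA Ctrl and 41 and 45 counts with sgNPM1A. Although the counts overlap in part, the CPM did not, with 1.91 ± 0.250 against 1.55 ± 0.106 CPM (SD, n = 2 each). The log2 fold change was -0.30 (95% interval -0.82 to 0.21, edgeR adjusted p = 0.379), so neither a fall nor a smaller rise was told from no change at this depth. ATF3 has 2 entries in the promoter table, the first of which holds the JUN-type site from 123 to 116 bases upstream. The window of FOS held none of the motifs.

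EGR1, a zinc finger factor of the immediate early response (ENSG00000120738.7, chr5:138465479-138469303, 2 exons), was higher with mtNPM1 KO. Its SD in CPM was the largest of the 9 genes in both conditions. Relative to the mean MAF varied more, with 0.0976 ± 0.0288 CPM with sgRNA Ctrl and 0.755 ± 0.307 with sgNPM1A (SD, n = 2 each). EGR1 had 1584 and 2189 counts with sgRNA Ctrl and 3987 and 3014 counts with sgNPM1A. The lowest sgNPM1A library, at 108.5 CPM, was above the highest control, at 84.5 CPM. The means were 73.4 ± 15.7 and 125.8 ± 24.4 CPM (SD, n = 2 each), a log2 fold change of 0.78 (95% interval 0.46 to 1.09, edgeR adjusted p = 0.00219), and leaving out single libraries moved it between 0.57 and 1.01. By DESeq2 EGR1 was also called, at 0.78 with a standard error of 0.29, but close to the threshold (DESeq2 adjusted p = 0.0436). The window upstream of EGR1, chr5:138465229-138465478 on the plus strand, is shown with capitals on its 2 CArG boxes, from 105 to 96 and from 83 to 74 bases before the start, the kind of element through which SRF and its partners drive immediate early genes. A CArG box was present in 1.16% of all windows.
EGR1: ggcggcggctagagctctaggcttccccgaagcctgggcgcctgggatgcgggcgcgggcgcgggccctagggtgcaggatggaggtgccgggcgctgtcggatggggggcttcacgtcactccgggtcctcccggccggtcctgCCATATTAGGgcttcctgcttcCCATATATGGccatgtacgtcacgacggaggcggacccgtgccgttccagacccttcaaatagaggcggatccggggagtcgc

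MAF, a large MAF factor expressed in macrophages (ENSG00000178573.6, chr16:79202622-79600737 in RefSeq, a span that takes in predicted transcripts), was nearly absent with sgRNA Ctrl. It had 3 and 2 counts with sgRNA Ctrl and 15 and 27 counts with sgNPM1A, that is 0.118 and 0.0772 against 0.538 and 0.972 CPM. Scaled for library size, the summed counts of 42 against 5 gave a ratio of 7.75 with an exact 95% counting interval of 3.07 to 25.1. The log2 fold change was 2.90 (95% interval 1.60 to 4.19, edgeR adjusted p = 0.00397), the largest of the 9 genes and the least precise. MAF passed the filter on low counts only through the sgNPM1A libraries, so it had to differ to be tested. Even with sgNPM1A it was the lowest of the 9 genes, at 0.283 ± 0.115 CPM per kb (SD, n = 2). The window upstream of MAF, chr16:79600738-79600987 on the minus strand, is shown with capitals on a CRE from 45 to 38 bases before the start.
MAF: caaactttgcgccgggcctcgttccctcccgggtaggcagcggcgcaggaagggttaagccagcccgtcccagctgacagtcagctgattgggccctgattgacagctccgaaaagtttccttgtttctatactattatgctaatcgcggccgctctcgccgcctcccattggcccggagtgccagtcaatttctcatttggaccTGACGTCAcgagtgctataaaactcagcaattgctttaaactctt

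**Figure D3:**
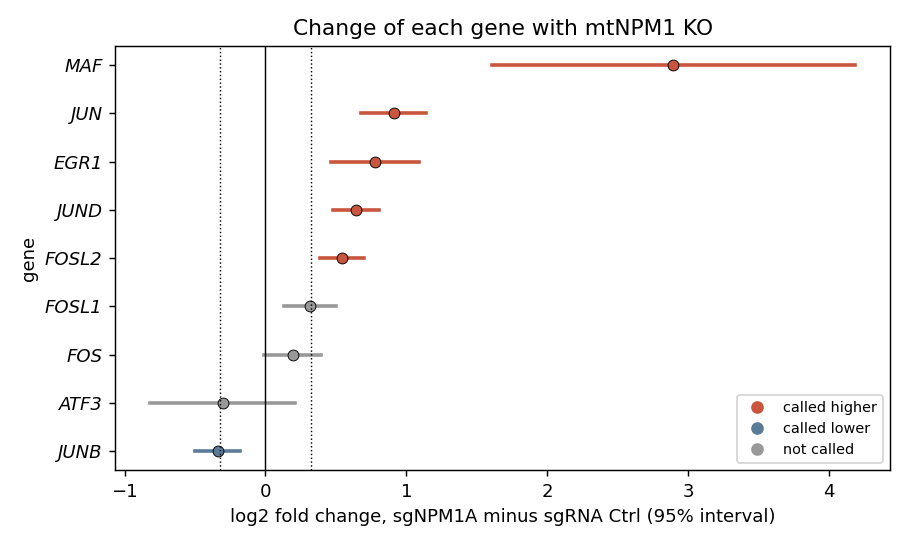
Log2 fold change (sgNPM1A minus sgRNA Ctrl) of each gene by edgeR with its 95% interval, with dotted lines at a fold of 1.25 in either direction, red for genes called higher, blue for lower and grey for not called. The interval of MAF, from 1.60 to 4.19, is the widest, and those of FOS and ATF3 cross 0.

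In order of CPM per kb, the sgRNA Ctrl libraries ran from JUNB and JUND to EGR1 (23.4 ± 5.01), FOSL2 (18.9 ± 1.37), FOSL1 (16.5 ± 0.818), FOS (14.8 ± 0.970), JUN, ATF3 (0.983 ± 0.129) and MAF (0.0366 ± 0.0108). JUNB and JUND did not differ beyond their spread, and neither did EGR1 and FOSL2. With sgNPM1A the order was JUND, JUNB, EGR1 (40.1 ± 7.77), FOSL2 (27.5 ± 0.461), FOSL1 (20.5 ± 0.146), FOS (17.0 ± 1.28), JUN (7.71 ± 0.684), ATF3 (0.797 ± 0.0546) and MAF. The orders differed in the places of JUND and JUNB, which were not told apart with sgRNA Ctrl. Errors are SD with n = 2 libraries.

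Of 11 other AP-1 and related basic leucine zipper genes, all tested, 2 were called, near the 20.8% of all tested genes, and both were lower. The median log2 fold change of the list was -0.06, and without sgRNA Ctrl replicate 1 there was also 1 called higher. JDP2, which encodes a repressor that dimerizes with Jun proteins, fell from 47.0 ± 7.34 to 31.4 ± 0.499 CPM (SD, n = 2 each), a log2 fold change of -0.58 (edgeR adjusted p = 0.00184). BATF2, a partner of Jun proteins induced by interferon, fell from 4.75 ± 0.0474 to 2.01 ± 0.249 CPM (SD, n = 2 each), a log2 fold change of -1.24 (edgeR adjusted p = 0.000506).

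Of 12 other MAF family genes and CNC genes that pair with them, 11 were tested and 2 were called, near the 20.8% of all tested genes, and the median log2 fold change was -0.21. The number called higher went from 1 to 2 without sgRNA Ctrl replicate 2, and the number called lower from 1 to 2 without sgNPM1A replicate 2 or either sgRNA Ctrl library. NFE2, a CNC factor that pairs with small MAF proteins, rose from 19.8 ± 0.428 to 57.5 ± 0.326 CPM (SD, n = 2 each), a log2 fold change of 1.54 (edgeR adjusted p = 2.37e-07).

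Of the other EGR genes and the NAB corepressors, 5 were listed and tested. Of these, 1 was higher and 1 was lower, against 10.5% and 10.3% of all tested genes, and the median log2 fold change was 0.05. NAB2, a corepressor of EGR1 whose gene is itself an EGR target, rose from 62.0 ± 3.95 to 85.0 ± 5.66 CPM (SD, n = 2 each), a log2 fold change of 0.45 (edgeR adjusted p = 0.00169). EGR4 had 38 and 51 counts with sgRNA Ctrl and 18 and 31 counts with sgNPM1A, a log2 fold change of -0.97 (edgeR adjusted p = 0.0394). This call was lost without sgNPM1A replicate 1, at -0.63 (edgeR adjusted p = 0.300), without sgRNA Ctrl replicate 2, at -0.76 (edgeR adjusted p = 0.192), and by DESeq2, at -0.98 (adjusted p = 0.155).

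Of 27 kinases and factors that act upstream of these genes, 26 were tested, 1 was higher and 3 were lower, against 10.5% and 10.3% of all tested genes, with a median log2 fold change of -0.02. Without sgNPM1A replicate 1 or sgRNA Ctrl replicate 1 there were 4 higher, and without sgRNA Ctrl replicate 2 there were 5 lower. MAPK14, the p38 alpha kinase, rose from 123.4 ± 9.26 to 201.0 ± 15.5 CPM (SD, n = 2 each), a log2 fold change of 0.70 (edgeR adjusted p = 6.44e-05). MEF2C, a p38-responsive factor, fell by 1.51 on the log2 scale (edgeR adjusted p = 5.10e-07). RPS6KA5, the MSK1 kinase, which phosphorylates CREB and histone H3, fell by 1.31 on the log2 scale (edgeR adjusted p = 6.87e-06).

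Other immediate early genes moved in both directions, with 6 higher and 6 lower of 25 tested and 27 listed, against 10.5% and 10.3% of all tested genes. Their median log2 fold change was 0.12. CCN2, among the lower genes, had 25 and 25 counts with sgRNA Ctrl and 5 and 4 counts with sgNPM1A. It passed the filter on low counts only through the sgRNA Ctrl libraries, so it had to differ to be tested. PHLDA1 fell from 34.0 ± 0.891 to 7.91 ± 0.123 CPM (SD, n = 2 each), a log2 fold change of -2.10 (edgeR adjusted p = 1.16e-07). PLK2, a stress-responsive kinase, rose by 1.32 (edgeR adjusted p = 0.000234) and NR4A1, an orphan nuclear receptor, fell by 0.96 (edgeR adjusted p = 0.00336), both on the log2 scale.

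Of 21 known AP-1 target genes 19 were tested, 10 were lower and 4 were higher, against 10.3% and 10.5% of all tested genes, and a median log2 fold change of -0.52. SPP1, among the higher genes, had 4 and 4 counts with sgRNA Ctrl and 15 and 21 counts with sgNPM1A. It passed the filter on low counts only through the sgNPM1A libraries, so it had to differ to be tested. HMOX1, which encodes heme oxygenase, fell from 33.4 ± 3.50 to 7.62 ± 1.04 CPM (SD, n = 2 each), a log2 fold change of -2.13 (edgeR adjusted p = 4.75e-07). IL1B, the inflammatory cytokine, fell by 1.45 on the log2 scale (edgeR adjusted p = 9.00e-07). PLAU, which encodes urokinase, rose from 3.24 ± 0.0979 to 9.87 ± 1.27 CPM (SD, n = 2 each), a log2 fold change of 1.61 (edgeR adjusted p = 2.39e-05). IL6 was at 0 in every library.

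**Figure D4:**
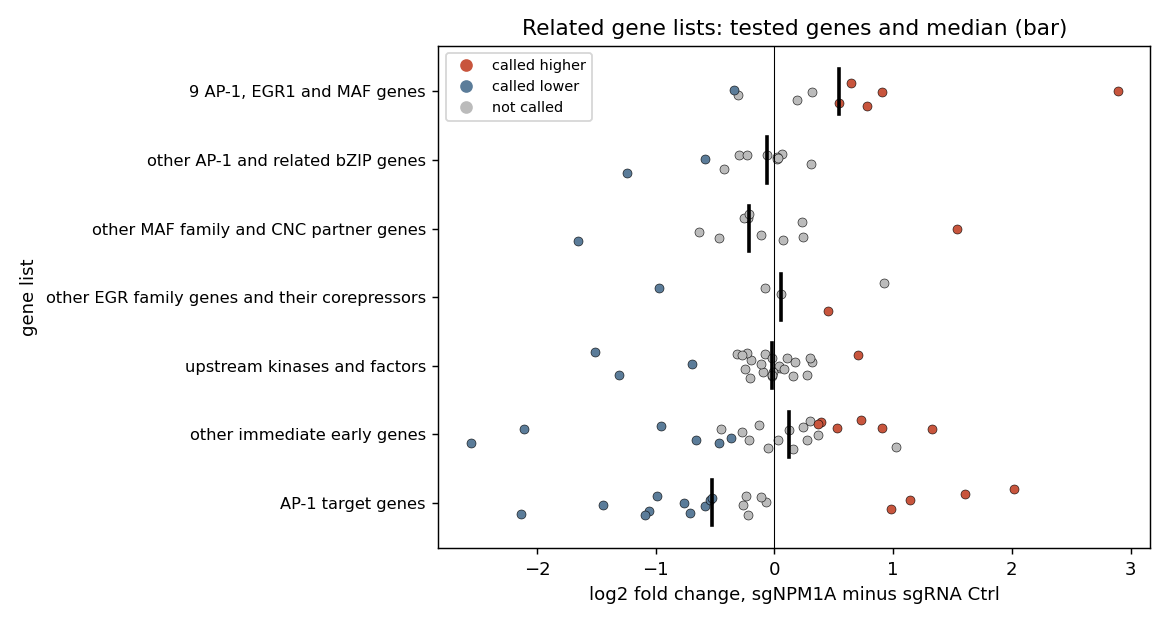
Log2 fold change (sgNPM1A minus sgRNA Ctrl) of each tested gene in the 9 AP-1, EGR1 and MAF genes and in 6 related lists, with red for genes called higher, blue for lower, grey for not called and a black bar at the median of each list. The median is 0.54 for the 9 genes, between -0.21 and 0.12 for the family, kinase and immediate early lists, and -0.52 for the AP-1 targets.

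Markers of monocytes and granulocytes were measured beside the 9 genes. For comparison with the counts in each marker list, 10.5% of all tested genes were higher and 10.3% lower. Of 16 monocyte and macrophage markers, 13 were tested, 9 were higher and 1 was lower, and their summed level was 624.3 to 650.8 CPM with sgRNA Ctrl and 3551 to 4414 CPM with sgNPM1A, with C1QB at 0 in every library. LYZ, which encodes lysozyme, rose from 242.9 ± 39.3 to 3005 ± 512 CPM (SD, n = 2 each) and made up most of the rise in the summed level. Its log2 fold change was 3.63 (edgeR adjusted p = 3.94e-08), that of S100A9 was 2.72 (edgeR adjusted p = 3.94e-08) and that of CD163, the hemoglobin scavenger receptor of macrophages, was -3.00 (edgeR adjusted p = 4.51e-08). CD14, VCAN and MS4A7 were tested and not called. Of 10 granulocyte markers, 6 were tested and 6 were higher, among them PRTN3 (2.21), MPO (1.77) and CSF3R (1.40) on the log2 scale. The granulocyte list summed to 2145 to 2233 CPM with sgRNA Ctrl and 4504 to 4542 CPM with sgNPM1A. CEBPE, also among the higher genes, had 6 and 4 counts with sgRNA Ctrl and 15 and 17 counts with sgNPM1A. It passed the filter on low counts only through the sgNPM1A libraries, so it had to differ to be tested. CEACAM8 and FCGR3B were at 0 in every library. Of 8 erythroid and megakaryocyte markers, 3 were tested and 2 were higher, one of them EPOR (0.57 on the log2 scale), with sums of 25.5 to 27.8 and 36.7 to 39.9 CPM and HBB and HBG1 at 0. The lymphoid markers summed to 258.2 to 271.8 CPM with sgRNA Ctrl and 287.3 to 296.2 CPM with sgNPM1A, nearly all of it CD4, with CD3E and MS4A1 at 0. Of 6 genes listed as markers of myeloid leukemia lines, 4 were tested, and CD38 (0.68) and SPI1 (0.48) were higher on the log2 scale. CD33 and PTPRC were not called. CD34 and KIT, with at most 9 and 2 counts in any library, were not tested. The list summed to 730.9 to 763.2 CPM with sgRNA Ctrl and 939.2 to 948.6 CPM with sgNPM1A. The part of these marker changes in the values of the 9 genes was not tested.

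The genes most like MAF in profile were found by the Euclidean distance of centred log2 CPM over the 4 libraries. They were sought among 10181 tested genes whose mean reached 5 CPM. A prior count of 2 was used for the log2 CPM, which shrinks the differences of a gene with as few counts as MAF. CCR2, the chemokine receptor of classical monocytes, was nearest at a distance of 0.402, with 20.6 and 18.1 CPM with sgRNA Ctrl and 76.0 and 90.9 CPM with sgNPM1A. SLC1A3, a glutamate transporter, followed at 0.424, with 3.66 and 3.82 CPM and then 14.1 and 18.3 CPM. LRRC4, a leucine-rich repeat membrane protein, lay at 0.453, with 2.87 and 2.16 CPM and then 12.3 and 13.8 CPM. In these genes, as in MAF, sgNPM1A replicate 2 was the highest library, which follows in part from choosing them by likeness to MAF. With 2 libraries per condition such likeness rests mainly on the difference between conditions, which for MAF depends on the prior count. By edgeR the log2 fold changes were 2.11 for CCR2, 2.11 for SLC1A3 and 2.38 for LRRC4, against 2.90 for MAF.

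The directions of the 9 genes held in each alternative that was run, and 112 values also kept their side of the call, while 2 lost and 2 gained it. The exceptions were JUNB without either of the libraries named above and FOSL1, which was called by limma-trend and without sgRNA Ctrl replicate 2. JUN lay between 0.82 and 1.00 on the log2 scale over the fits without single libraries, JUND between 0.56 and 0.73, FOSL2 between 0.47 and 0.62 and MAF between 2.41 and 3.26. Each such fit has a condition with 1 library, which is assumed to vary like the other condition.

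**Figure D5:**
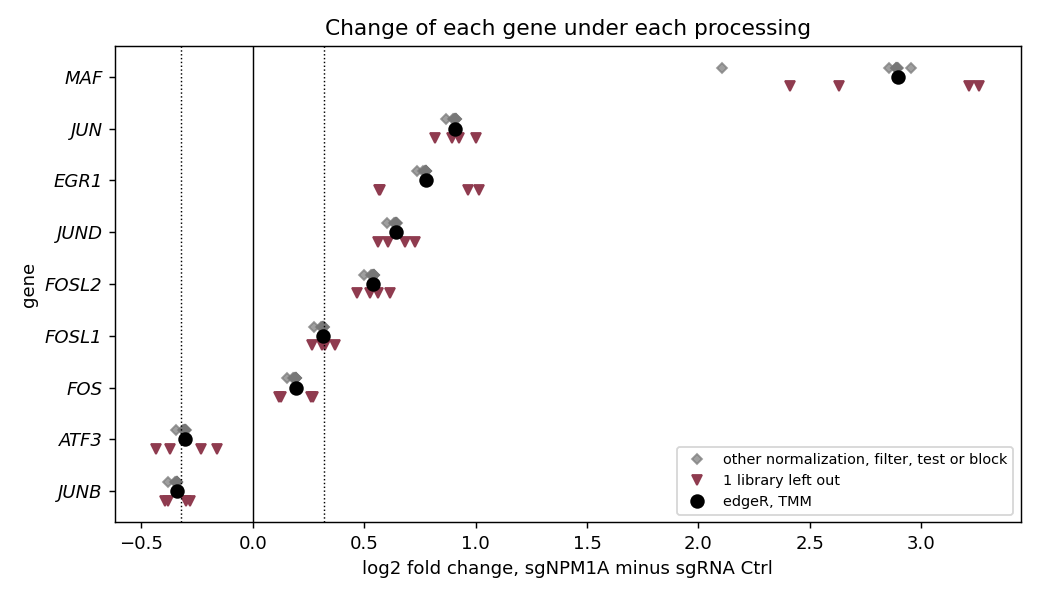
Log2 fold change (sgNPM1A minus sgRNA Ctrl) of each gene by edgeR with TMM (black circles), under other normalizations, filters, tests or replicate blocks (grey diamonds) and without 1 library (triangles), with dotted lines at a fold of 1.25. No value crosses 0, and MAF spans from 2.10 to 3.26.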

How the data were processed

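Paired-end reads were mapped to hg38 with STAR by the authors, who deposited unnormalized counts of reads on Ensembl genes in a table of the 4 libraries. The counting program, annotation release and strand setting are not given in the sources used here. Libraries were prepared with spike-ins according to the study's methods, and no scaling by them was used. Symbols were matched by Ensembl identifier, positions are those of RefSeq on GRCh38, and transcript lengths are those of GENCODE canonical transcripts.

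Counts were compared in edgeR 4.0.16 (R 4.3.3) with filterByExpr at a minimum count of 10, TMM normalization, robust dispersions and quasi-likelihood F tests that were two-sided and adjusted by Benjamini-Hochberg over all 15718 tested genes. Calls required an adjusted p under 0.05 as well as a fold of at least 1.25, the fold threshold of the study. Standard errors were derived from the F statistic, and counting intervals are exact. Replicates within each condition differed by more than sampling noise (chi-square per degree of freedom 9.26 for sgRNA Ctrl and 4.23 for sgNPM1A).

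The 9 genes, the related lists and the marker lists were chosen with earlier results of these data known. From each list the 3 called genes with the largest change and a mean of at least 1 CPM are named, as are list genes at 0 in every library, the 3 genes nearest in profile to the called gene of largest change, and called genes within 100 kb of one of the 9 genes. A gene that this rule covers is not reported here. Alternatives were DESeq2 1.42.0, limma-trend (limma 3.58.1), other normalizations, filters and fold thresholds, a replicate block, and leaving out each library. A crossed block and the length of all annotated exons were added after seeing the data.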

Additional observations from a re-analysis of the deposited data

How the results depend on the processing

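At a fold of at least 2, 498 of the 15718 tested genes were higher and 502 lower. Of the 9 genes, 1 was higher and 0 lower at that fold. The higher gene was MAF, which passed the filter on low counts only through the sgNPM1A libraries. At that fold the AP-1 and related genes (11 tested) had 1 lower, and the EGR list (5 tested) 0 higher and 0 lower. The upstream list (26 tested) then had 0 higher and the immediate early list (25 tested) 1 higher and 2 lower. The AP-1 targets (19 tested) had 4 lower. With no fold threshold 2030 of all tested genes were higher and 2057 lower. The AP-1 and related genes then had 1 higher and the MAF and CNC list (11 tested) 2 higher and 2 lower. The upstream list had 3 higher and 5 lower. The MAF and CNC list had 2 lower with the replicate block, the crossed block, library size only and no filter on low counts. The EGR list had 2 higher with the crossed block and 0 lower by DESeq2. FOSL1 was called by limma-trend at 0.32. By the length of all annotated exons JUND took 63.0% of the Jun sum with sgNPM1A. Leaving out single libraries, the lower calls among the 9 genes ranged from 0 to 1, JUNB from -0.39 to -0.28 and FOSL1 from 0.27 to 0.37. The AP-1 and related list ranged from 0 to 1 higher, the MAF and CNC list from 1 to 2 higher and 1 to 2 lower, the EGR list from 0 to 1 lower, and the upstream list from 1 to 4 higher and 3 to 5 lower. Except for the fold threshold and the construction of fits with fewer samples, the cause of these changes was not tested. Deviations of same-numbered libraries correlated at -0.130 over all tested genes and -0.523 over 8856 genes with a mean CPM above 10. The replicate block gave 1637 genes higher and 1604 lower, the crossed block 1955 and 1918, and either block left 5 of the 9 genes higher and 1 lower. Library size only shifted the median of all genes by -0.04. MAF gave no value with at least 10 counts required in every library. Of the values of the 24 list genes that the rule covers, 309 kept direction and call and 3, all of EGR4, kept the direction alone. Depth limits what can be said of genes with few counts, such as MAF.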

Other observations

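Genes within 100 kb of the 9 genes on GRCh38 were examined for called genes. Of 94 such genes 37 were tested, 9 were higher and 1 was lower with mtNPM1 KO, against 10.5% and 10.3% of all tested genes. CCDC85B, 414 bases from FOSL1, had 133.1 and 144.8 CPM with sgRNA Ctrl and 234.2 and 231.0 CPM with sgNPM1A. It rose by 0.74 on the log2 scale (edgeR adjusted p = 1.49e-05), while FOSL1 itself was not called. PLB1, a phospholipase gene 78743 bases from FOSL2, had 11 and 8 counts with sgRNA Ctrl and 72 and 96 counts with sgNPM1A, a log2 fold change of 3.01 (edgeR adjusted p = 3.88e-05). DNASE2, which encodes the lysosomal nuclease, 81894 bases from JUNB, had 6 and 6 counts with sgRNA Ctrl and 45 and 61 counts with sgNPM1A, and was higher (edgeR adjusted p = 0.000131). DNASE2 and PLB1 passed the filter on low counts only through the sgNPM1A libraries, so they had to differ to be tested. PRDX2 (0.46), MAST1 (0.60) and KLF1 (1.03) were also higher on the log2 scale, so that 4 of the 11 tested neighbours of JUNB were called higher and JUNB lower. BABAM2 (0.33) near FOSL2, IQCN (1.13) near JUND and HSPA9 (0.47) near EGR1 were higher on the log2 scale. WWOX, whose gene overlaps the RefSeq span of MAF, fell by 0.47 on the log2 scale (edgeR adjusted p = 0.0226), from 329 and 298 counts with sgRNA Ctrl to 268 and 223 counts with sgNPM1A.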
